A study of Mus musculus with 9 samples.

Results

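The genes of cholesterol and lipoprotein handling examined here are *Apoe*, *Abca1*, *Abcg1*, *Lrp1*, *Npc1*, *Npc2*, *Soat1*, *Nr1h3* and *Scarb1*, 9 of the 37725 genes in the count table, and all 9 were found in it. They were chosen by name for their roles, with earlier results of these data known. The data were single-cell RNA-sequencing counts of dissociated mouse retina, in which cells with markers of the retinal pigment epithelium (RPE) were also found, with the 2 retinas of a mouse combined, from 4 control mice (S01 to S04) and 5 double knockout (dKO) mice (S05 to S09). All 9 mice carried RPE65-ERT2-Cre with floxed miR-204 and floxed miR-211. Starting at postnatal day 28, daily dosing for 5 days was with tamoxifen (75 mg/kg) in the dKO group and with corn oil alone in the control group, and the time given in the labels is 6 months. Cre in this line is driven by the *Rpe65* promoter, so the deletion is directed at RPE cells, and the other cells of the dKO retina are neighbours of the targeted cells. Only the dKO mice received tamoxifen, so drug and deletion cannot be told apart. The level of the microRNAs was not analysed here, and the deletion was therefore not checked.

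As background, the retina makes cholesterol locally and also takes it up from the blood as lipoprotein through the RPE. Apolipoprotein E (*Apoe*) is a main lipid carrier secreted by glia and RPE, and ABCA1 and ABCG1 export cholesterol to such particles. LRP1 and the scavenger receptor SR-BI (*Scarb1*) take lipoprotein or its lipid into cells, NPC2 and NPC1 hand the freed cholesterol out of the lysosome, SOAT1 esterifies it for storage, and the nuclear receptor LXRα (*Nr1h3*) switches on efflux genes when oxysterols accumulate.

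The floxed microRNAs share a seed, and they are shown because the seed sets which sites can be looked for in the 9 genes. In the mature sequences from RefSeq, listed with GRCm38.p6, capitals mark the seed at bases 2 to 8. Counted from base 1 at the 5′ end, the single difference is A17U, with miR-204-5p as the reference.
mmu-miR-204-5p: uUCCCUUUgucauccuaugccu
mmu-miR-211-5p: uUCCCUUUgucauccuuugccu
The complement of the seed, AAAGGGA, was searched on the transcribed strand of annotated 3′ UTRs in GENCODE M39 on GRCm39. It was found in 3 of the 9 genes, *Abca1*, *Lrp1* and *Soat1*, against 4463 of 20960 genes (21.29%). The site of *Abca1* lies at chr4:53031298-53031304 on the minus strand, in the 3′ UTR of Abca1-201. *Soat1* holds an 8mer, in which a further A follows the seed match, at chr1:156257888-156257895 on the minus strand, in the 3′ UTR of Soat1-207. *Lrp1* holds an 8mer at chr10:127438708-127438715 on the minus strand, in the 3′ UTR of Lrp1-211 and outside that of the canonical Lrp1-201. The sites are printed with flanking bases, and capitals mark the match.
Abca1: ggcattgacttAAAGGGAttgtttgttgtc
Soat1: gtcagaagtagAAAGGGAAaaaagacattt
Lrp1: tccaggactgaAAAGGGAAaagagactcat
A match of letters is a description and does not show binding. Shorter seed sites and sites of the 3p strands of these microRNAs, which the study also considered, were not searched. A gene without a match here may therefore hold other sites.

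Cell types were gated by marker genes, none of which is among the 9 genes. Of 31089 cells, 329 were RPE-like, 2215 Müller glia-like, 112 microglia-like and 22690 were neurons, of which 15612 were rods. At least 10 cells of a type, the minimum for a mouse to enter, were present in 7 mice for RPE, 9 for Müller glia, 5 for microglia and 9 for neurons. Between 15079143 and 66528160 UMIs (unique molecular identifiers, 1 for each captured RNA molecule) were counted per mouse, and no cell name was shared between mice. Mice S04, S05 and S07 stood apart. Rods made up 86.1%, 70.6% and 77.1% of their cells, against 31.4% to 44.9% in the other 6 mice, and Y-linked RNA stood at 404 to 424 CPM (counts per 1000000 UMIs) in these 3 mice and at 4.25 to 4.96 CPM in the others. S04 gave 0 RPE-like cells and S05 gave 3. S07 gave 12, with 38564 UMIs in all, of which 6 cells held *Xist* RNA and no Y-linked UMI although Y-linked RNA was present in that mouse. One animal number is given to both S06 and S07 by the labels.

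Levels are given as CPM of the UMIs of that mouse and type. Every RPE marker was detected in the RPE-like sums, though the gate that chose these cells uses the same markers. Rod markers summed there to 319 to 504 CPM in 6 mice and 1686 CPM in S07, and the 4 melanocyte markers to 716 to 1952 CPM. Müller glia markers summed to 1313 to 2151 CPM, bipolar markers to 566 to 1276 CPM and microglia markers to 411 to 804 CPM. The bipolar list includes *Trpm1*, which the study reports in RPE as well as in bipolar cells, so that sum does not measure bipolar RNA alone. Of the 8 microglia markers, 2 were at 0. The part of these 3 lists in the results on RPE-like cells was not tested. A melanocyte gate, on *Mlana*, *Pmel*, *Tyr* and *Dct*, was also met by 21 RPE-like cells. Whether these cells are melanocytes was not tested. The microglia-like sums held 10 to 23 cells per mouse. In them the 4 markers of other macrophages, none of them at 0, summed to 304 and 500 CPM in the control mice and 716 to 853 CPM in the dKO mice. The 4 fibroblast markers, none at 0 over all the sums, gave 0 and 262 CPM in the control mice and 181, 223 and 2157 CPM in the dKO mice, the last in S08. The rod and cone markers of S06 stood at 2143 and 1298 CPM. Müller glia markers summed to 1142 and 403.5 CPM in control mice S02 and S03. In dKO mice S06, S08 and S09 they summed to 997, 367 and 1719 CPM. Bipolar markers ran from 446 to 885 CPM. A gate for other macrophages was also met by 14 microglia-like cells. The part of these markers in the results on microglia-like cells was not tested. In the Müller glia-like sums, endothelial markers had a median of 1533 CPM, beside 30.7 CPM in neurons. An endothelial gate was also met by 2 Müller glia-like cells and an astrocyte gate by 14. Their part in the results on Müller glia-like cells was not tested.

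The first question was how the genes are divided among the cell types that supply, take up and store lipid. *Apoe*, *Abca1*, *Lrp1*, *Npc2* and *Soat1* were each higher in RPE-like, Müller glia-like and microglia-like cells than in neurons, and *Abcg1* was lower in RPE-like and Müller glia-like cells than in neurons. Against neurons, 7 of the 9 genes passed the test in RPE-like cells (69.9% of 15122 genes tested did), 7 in Müller glia-like cells (70.6%) and 7 in microglia-like cells (53.8%). Among the other types, 6 of 9 passed between RPE-like and Müller glia-like cells (59.4% of all genes), 6 between microglia-like and Müller glia-like cells (42%) and 6 between microglia-like and RPE-like cells (40.1%). By direction, the calls in RPE-like cells against neurons were 5 higher and 2 lower (26.6% and 43.4% of all genes), those in Müller glia-like cells 6 and 1 (28.1% and 42.4%) and those in microglia-like cells 5 and 2 (17% and 36.8%). RPE-like minus Müller glia-like cells gave 4 higher and 2 lower (26.2% and 33.2%), microglia-like minus Müller glia-like cells 5 and 1 (15.1% and 26.9%), and microglia-like minus RPE-like cells 3 and 3 (16.1% and 24.1%). Depending on the pair, 40.1% to 70.6% of the 15122 genes tested differed, and the share of members called, 77.8% or 66.7%, is read against that background. The median log2 difference over the 9 genes was 2.41 for RPE-like cells minus neurons, beside −0.32 over all genes, 0.54 beside −0.20 for Müller glia-like cells, and 2.27 beside −0.69 for microglia-like cells.

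These log2 differences are on the TMM scale of edgeR's quasi-likelihood test with mouse as a block and Benjamini-Hochberg adjustment, whereas the levels per mouse are plain CPM. Of 39 calls among the 54 combinations of gene and pair, 37 were kept under library-size and DESeq2 scaling, and 32 were kept under every alternative run, leaving out each mouse included. All 39 kept their sign relative to the median of all genes. The scaling moved the share of higher calls over all genes. In microglia-like against RPE-like cells 40.1% of calls were higher under TMM, against 66.3% with library sizes and 57.4% with DESeq2. The split moved from 31.5% to 47.8% and 52.8% for microglia-like cells against neurons, and from 35.9% to 54.8% and 53.3% against Müller glia-like cells. For RPE-like against Müller glia-like cells it moved from 44.1% to 33.7% with library sizes.

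**Figure D1:**
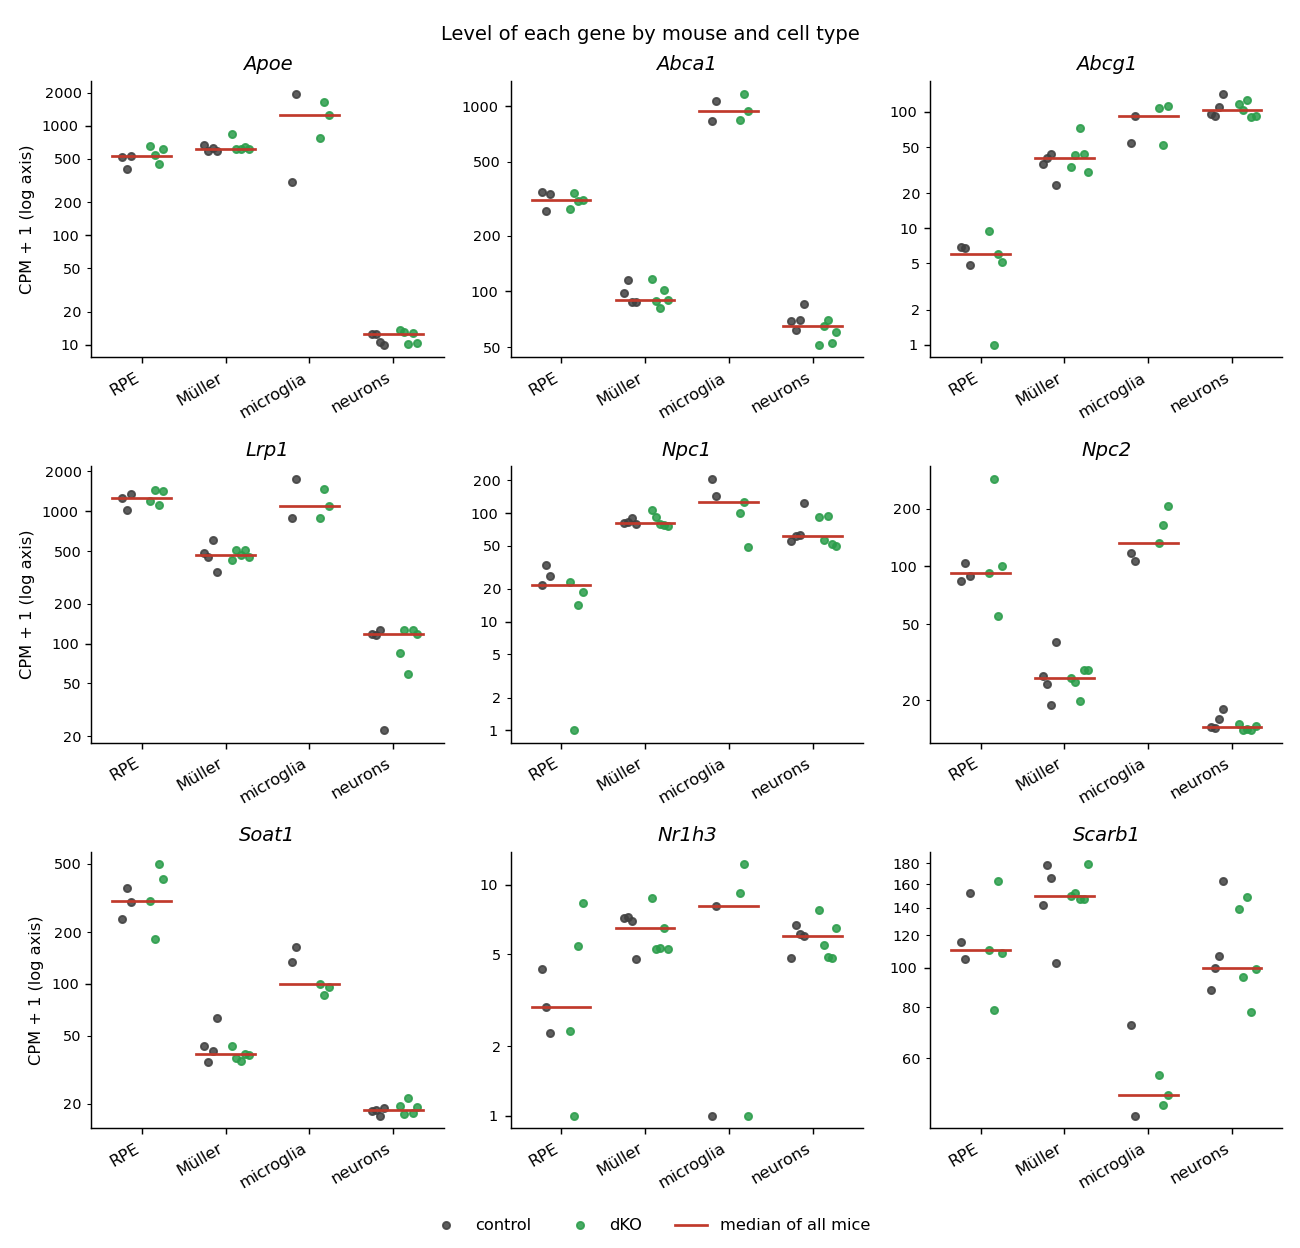
Level of each of the 9 genes in each mouse and cell type, as CPM + 1 on a log axis, with control mice in grey, dKO mice in green and a red line at the median of the mice with at least 10 cells of that type. *Apoe* in neurons lay at 9.0 to 12.6 CPM, below every value of the other 3 types, while *Abcg1* was lowest in RPE-like cells.

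*Apoe* (chr7:19430034-19434947, minus strand, GRCm39), the secreted lipid carrier, was abundant in all 3 non-neuronal types. In RPE-like cells it stood at 513, 405 and 530 CPM in control mice S01, S02 and S03 and at 654, 545, 446 and 614 CPM in dKO mice S06, S07, S08 and S09. Müller glia-like cells ranged from 584 to 841 CPM with a median of 617, and neurons from 9.0 to 12.6 CPM with a median of 11.6. Every RPE and Müller value lay above every neuronal value, and the log2 difference from neurons was 5.72 ± 0.24 (SE) in RPE-like cells (edgeR adjusted p = 5.09e-18) and 5.85 ± 0.23 in Müller glia-like cells (edgeR adjusted p = 6.21e-19). Microglia-like cells held 303 and 1961 CPM in control mice S02 and S03 and 775, 1649 and 1242 CPM in dKO mice S06, S08 and S09. The microglial values were the most scattered, and both the lowest and the highest came from control mice. They exceeded neurons by 6.23 ± 0.27 on the log2 scale (edgeR adjusted p = 1.42e-17).

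Among the non-neuronal types, *Apoe* differences were small beside those from neurons. RPE-like minus Müller glia-like cells gave −0.13 on the log2 scale (95% interval −0.56 to 0.31, edgeR adjusted p = 0.63). Microglia-like minus Müller glia-like cells gave 0.39 (−0.12 to 0.89, edgeR adjusted p = 0.22). That difference was 0.83 with library sizes and 0.70 with DESeq2, and it passed the threshold in 3 of 19 alternatives. Microglia-like minus RPE-like cells gave 0.51 (−0.005 to 1.03, edgeR adjusted p = 0.11), and this difference passed the threshold with library sizes (1.10), with DESeq2 (0.83), without the mouse block (0.63) and without S02 (0.67). When each cell was thinned to 3000 UMIs, *Apoe* is expected in 62.1% of RPE-like, 78.9% of Müller glia-like and 49.7% of microglia-like cells and in 3.14% of rods. The unthinned shares were 81.2%, 96.6%, 57.1% and 5.73%, at median depths of 16149, 15040, 6692 and 4705 UMIs, and thinning left out 72, 43, 9 and 3143 shallower cells. Rods are not known as a source of *Apoe*, and their share is read as background.

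The pair of exporters was divided between cell types. *Abca1* (chr4:53030787-53159900, minus strand), which loads lipid on apolipoproteins, was highest in microglia-like cells, at 830 and 1062 CPM in control mice S02 and S03 and at 845, 1169 and 939 CPM in dKO mice S06, S08 and S09. RPE-like cells held 341, 269 and 336 CPM in control mice S01 to S03 and 277, 337, 305 and 310 CPM in dKO mice S06 to S09. The ranges of these types did not overlap, and microglia-like minus RPE-like cells gave 1.08 ± 0.17 (SE) on the log2 scale (edgeR adjusted p = 7.22e-06). In Müller glia-like cells *Abca1* stood at 80.4 to 116 CPM with a median of 88.8, and neurons at 50.3 to 84.6 CPM with a median of 63.6. RPE-like cells exceeded Müller glia-like cells by 1.87 ± 0.15 on the log2 scale (edgeR adjusted p = 8.24e-12) and did so in 7 of 7 mice. The smaller excess of Müller glia-like cells over neurons (0.54 ± 0.13, edgeR adjusted p = 7.05e-04) did not pass the threshold against rods alone (0.22, edgeR adjusted p = 0.13).

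*Abcg1* (chr17:31276649-31336969, plus strand), which passes cholesterol to particles that already carry lipid, was lowest in RPE-like cells. They held 5.89, 5.82 and 3.85 CPM in control mice S01 to S03 and 8.41, 0, 5.08 and 4.18 CPM in dKO mice S06 to S09, from 62 UMIs over all mice. The 0 in S07 allows up to 77.8 CPM (3 counts), which is above the level of the other 6 mice and so does not bear on the order. The Müller glia-like sums stood at 22.5 to 71.7 CPM (median 39.5), microglia-like cells at 53.5 and 92.0 CPM in control and 107, 50.8 and 111 CPM in dKO mice, and neurons at 89.0 to 143 CPM (median 102). RPE-like cells lay below Müller glia-like cells and neurons in each of the 6 mice other than S07. They lay below microglia-like cells in all 5 mice in which both types entered. Their log2 difference was −3.96 ± 0.22 from neurons (edgeR adjusted p = 2.05e-15) and −2.54 ± 0.23 from Müller glia-like cells (edgeR adjusted p = 7.71e-11). Microglia-like cells exceeded RPE-like cells by 3.22 ± 0.33 (edgeR adjusted p = 2.96e-09), and Müller glia-like cells were below neurons by a log2 difference of −1.42 ± 0.14 (edgeR adjusted p = 2.42e-10).

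Microglia-like cells took a middle place for *Abcg1* that depended on the settings. Their difference from neurons (−0.74, edgeR adjusted p = 0.014) did not pass with library sizes (−0.31, edgeR adjusted p = 0.31) or DESeq2 (−0.33, adjusted p = 0.33), nor without S01, S02, S03, S08 or S09, and their values overlapped those of neurons. Their excess over Müller glia-like cells (0.68, edgeR adjusted p = 0.035) did not pass under the stricter gate (0.44, edgeR adjusted p = 0.24) or without S03 (0.65), S06 (0.58) or S09 (0.61). In the kinds of neuron *Abcg1* stood at 148 to 190 CPM in rods and 121 to 189 CPM in cones, and at 21.3 to 52.3 CPM in ganglion cells, with no overlap. *Abca1* in ganglion cells was at 1.75 to 13.5 CPM, below the 88.3 to 141 CPM of horizontal cells. Differences between kinds of neuron were not tested and are given as levels.

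**Figure D2:**
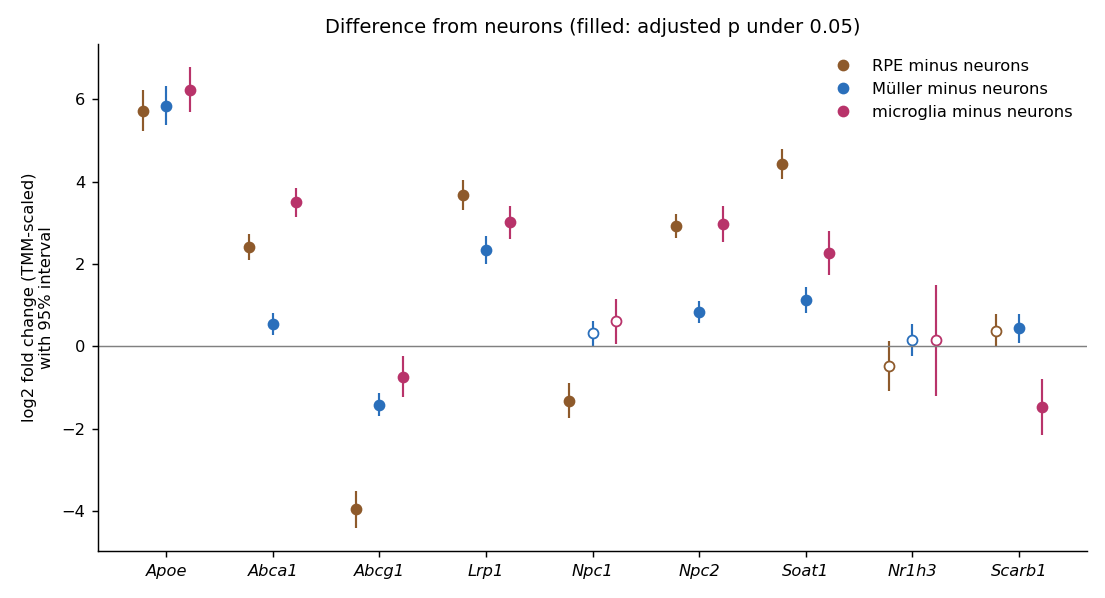
Log2 fold change of each gene in RPE-like (brown), Müller glia-like (blue) and microglia-like cells (magenta) minus neurons, on the TMM scale, with 95% intervals, and filled points where the adjusted p of edgeR was under 0.05. *Apoe* is at 5.72 to 6.23 in all 3 types, while *Abcg1* is lowest, at −3.96, in RPE-like cells, and its call in microglia-like cells is not kept under other scalings.

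Of the receptors, *Lrp1* (chr10:127374012-127457017, minus strand), which takes up apolipoprotein E particles, was high in RPE-like and microglia-like cells. RPE-like cells held 1249, 1022 and 1341 CPM in control mice S01 to S03 and 1182, 1452, 1118 and 1409 CPM in dKO mice S06 to S09. Microglia-like cells held 892 and 1749 CPM in control mice S02 and S03 and 890.0, 1474 and 1098 CPM in dKO mice S06, S08 and S09. These ranges overlapped. Microglia-like minus RPE-like cells gave −0.66 on the log2 scale (edgeR adjusted p = 0.011), but −0.09 with library sizes (edgeR adjusted p = 0.81), −0.36 with DESeq2 (adjusted p = 0.21), −0.55 without the mouse block (edgeR adjusted p = 0.12) and −0.58 without S06 (edgeR adjusted p = 0.062), and RPE-like cells were the higher in only 3 of 5 mice in CPM. Müller glia-like cells stood at 347 to 600 CPM (median 465), and RPE-like cells exceeded them in 7 of 7 mice, by 1.34 ± 0.18 on the log2 scale (edgeR adjusted p = 1.60e-07). The excess of microglia-like over Müller glia-like cells (0.68, edgeR adjusted p = 0.0076) did not pass without S03 (0.51) or S08 (0.52). S08 is the mouse whose microglia-like sum held the most fibroblast markers (2157 CPM), and fibroblast-like cells held a median of 1827 CPM of *Lrp1*. The highest microglia-like value, 1749 CPM, was that of S03, with 262 CPM of fibroblast markers. The part of fibroblast RNA in the *Lrp1* difference was not tested.

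Neurons held 117, 116, 126 and 21.2 CPM of *Lrp1* for the controls (S01 to S04) and 83.4, 126, 57.5, 125 and 118 CPM in dKO mice S05 to S09. The 3 lowest sums, those of S04, S05 and S07, came from the mice with the largest share of rods. Rods stood at 10.95 to 24.8 CPM and cones at 14.7 to 32.3 CPM over the 9 mice, horizontal cells at 43.6 to 78.4 CPM in 7 mice, bipolar cells at 88.7 to 113 CPM, amacrine cells at 145 to 257 CPM and ganglion cells at 183 to 235 CPM in 8 mice. Photoreceptors lay below every other kind of neuron without overlap, whereas amacrine and ganglion cells overlapped. After thinning to 3000 UMIs, *Lrp1* is expected in 92.4% of RPE-like, 90.8% of microglia-like and 75.2% of Müller glia-like cells and 3.80% of rods, against 94.2%, 95.5%, 98.0% and 6.76% before.

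*Scarb1* (chr5:125353547-125418176, minus strand), the receptor for high-density lipoprotein, had the reverse order among neurons. Rods held 174 to 246 CPM and cones 154 to 212 CPM, against 39.5 to 81.1 CPM in bipolar cells, 19.9 to 55.2 CPM in horizontal cells, 15.0 to 47.0 CPM in amacrine cells and 10.4 to 38.3 CPM in ganglion cells. Photoreceptors were above all the other kinds without overlap. Müller glia-like cells stood at 101 to 178 CPM (median 149), and RPE-like cells at 115, 104 and 151 CPM in control mice S01 to S03 and 109, 77.8, 162 and 108 CPM in dKO mice S06 to S09. These ranges overlapped, and RPE-like minus Müller glia-like cells gave −0.06 on the log2 scale (95% interval −0.45 to 0.33). The comparison with neurons changed with the neurons taken. RPE-like cells minus all neurons gave 0.38 (edgeR adjusted p = 0.086), minus rods −0.64 (edgeR adjusted p = 6.42e-05) and minus the other neurons 1.49 (edgeR adjusted p = 3.26e-09), and with S04, S05 and S07 left out it was 0.82 (edgeR adjusted p = 1.76e-06). Müller glia-like cells gave 0.44 (edgeR adjusted p = 0.023) against all neurons and −0.50 (edgeR adjusted p = 0.00017) against rods.

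Microglia-like cells had the lowest *Scarb1* of the 4 types, at 71.4 and 42.5 CPM in control mice S02 and S03 and at 53.6, 45.2 and 47.8 CPM in dKO mice S06, S08 and S09. Every one of these values lay below every RPE and Müller value. The log2 difference was −1.92 ± 0.33 from Müller glia-like cells (edgeR adjusted p = 1.68e-05) and −1.86 ± 0.33 from RPE-like cells (edgeR adjusted p = 3.79e-05), and 5 of 5 mice showed each direction. The difference from neurons (−1.48 ± 0.33, edgeR adjusted p = 4.81e-04) did not pass against neurons other than rods (−0.41, edgeR adjusted p = 0.28).

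**Figure D3:**
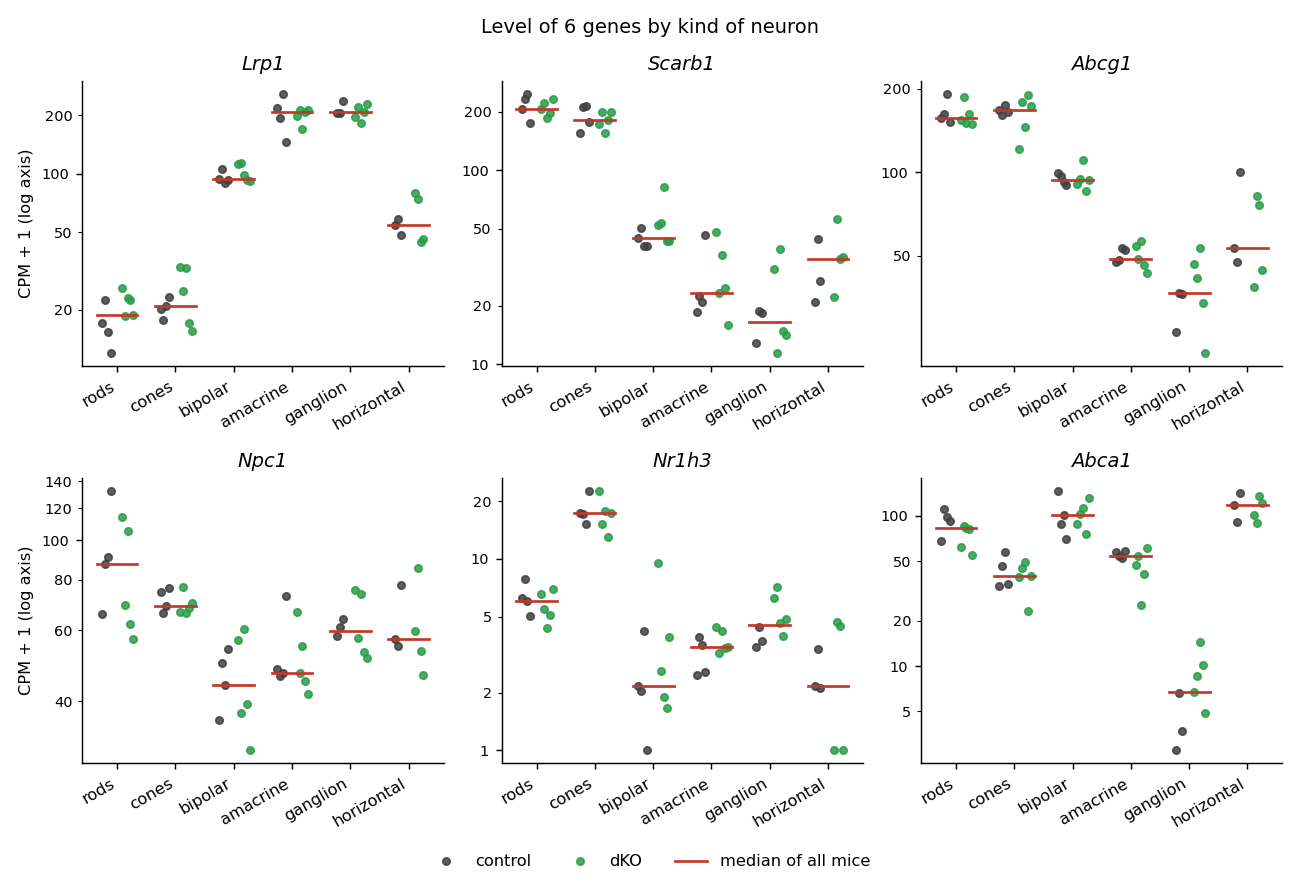
Level of 6 of the genes in each mouse and kind of neuron, as CPM + 1 on a log axis, with control mice in grey, dKO mice in green and a red line at the median. *Lrp1* is at 10.95 to 24.8 CPM in rods and 145 to 257 CPM in amacrine cells, and *Scarb1* shows the opposite order, at 174 to 246 CPM and 15.0 to 47.0 CPM.

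The lysosomal partners were also divided. *Npc2* (chr12:84801334-84820617, minus strand), the soluble protein that binds cholesterol in the lysosome, stood in RPE-like cells at 82.4, 103 and 88.5 CPM in control mice S01 to S03 and 91.7, 285, 53.9 and 99.2 CPM in dKO mice S06 to S09, where the value of S07 rests on 11 UMIs. Microglia-like cells held 116 and 106 CPM in control mice S02 and S03 and 132, 164 and 207 CPM in dKO mice S06, S08 and S09. Lower levels were found in Müller glia-like cells, at 18.0 to 39.4 CPM (median 25.1), and in neurons, at 12.9 to 16.9 CPM (median 13.5). RPE-like and microglia-like cells thus overlapped each other and lay above the other types. RPE-like cells exceeded Müller glia-like cells by 2.08 ± 0.14 (edgeR adjusted p = 3.24e-13) and neurons by 2.92 ± 0.14 (edgeR adjusted p = 1.22e-16) on the log2 scale, in 7 of 7 mice each. Microglia-like minus RPE-like cells gave 0.06 (95% interval −0.36 to 0.47), and with library sizes 0.67 (edgeR adjusted p = 0.023). The gene overlaps *Isca2* on the other strand, and whether the counting used strand is not given in the sources used here.

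*Npc1*, the membrane protein that receives the cholesterol from NPC2, was lowest in RPE-like cells. They held 20.6, 32.0 and 25.2 CPM in control mice S01 to S03 and 22.1, 0, 13.3 and 17.8 CPM in dKO mice S06 to S09, from 236 UMIs over all mice, and the 0 of S07 again allows up to 77.8 CPM. Müller glia-like cells stood at 74.6 to 106 CPM (median 79.95) and neurons at 48.3 to 122 CPM (median 60.4). With S07 set aside, the RPE values lay below all of these. The log2 difference was −1.63 ± 0.20 from Müller glia-like cells (edgeR adjusted p = 6.81e-08) and −1.32 ± 0.21 from neurons (edgeR adjusted p = 2.10e-06). Microglia-like cells held 205 and 142 CPM in control mice S02 and S03 and 98.9, 124 and 47.8 CPM in dKO mice S06, S08 and S09, and exceeded RPE-like cells by 1.93 ± 0.30 on the log2 scale (edgeR adjusted p = 3.72e-06). Against neurons, Müller glia-like cells gave 0.31 (edgeR adjusted p = 0.072) and microglia-like cells 0.61 (edgeR adjusted p = 0.054), and these differences passed the threshold in 14 and 12 of 19 alternatives, over which they ran from 0.03 and 0.32 against rods alone to 0.75 and 1.05. Rods held 64.8, 86.2, 89.8 and 131 CPM for the controls (S01 to S04) and 113, 68.3, 104, 61.0 and 56.0 CPM in dKO mice S05 to S09. The mice that stood apart were therefore also the highest within this one kind of neuron. *Npc1* overlaps *Rmc1* and *Gm15956* on the other strand, and in the same way *Lrp1* overlaps *Gm16217* and *Soat1* overlaps *Gm37648*.

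*Soat1* (chr1:156252095-156303864, minus strand), which stores cholesterol as ester, was highest in RPE-like cells. They held 237, 359 and 299 CPM in control mice S01 to S03 and 303, 182, 497 and 409 CPM in dKO mice S06 to S09. Microglia-like cells held 134 and 163 CPM in control mice S02 and S03 and 98.9, 84.7 and 95.5 CPM in dKO mice S06, S08 and S09. Levels were lower in Müller glia-like cells, at 34.1 to 62.0 CPM (median 38.2), and in neurons, at 16.1 to 20.5 CPM (median 17.5). The 4 ranges did not overlap. RPE-like cells exceeded Müller glia-like cells by 3.29 ± 0.17 (edgeR adjusted p = 7.73e-16) and neurons by 4.42 ± 0.18 (edgeR adjusted p = 1.43e-18) on the log2 scale, and microglia-like minus RPE-like cells gave −2.15 ± 0.24 (edgeR adjusted p = 1.70e-08). After thinning to 3000 UMIs, *Soat1* is expected in 53.8% of RPE-like, 28.7% of microglia-like and 10.5% of Müller glia-like cells and 5.59% of rods, against 79.0%, 47.3%, 39.1% and 9.99% before.

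*Nr1h3* (chr2:91014394-91033417, minus strand), which encodes the sterol sensor LXRα, was sparsely counted and overlaps *Acp2* on the other strand. RPE-like cells held 31 UMIs over all mice, at 3.31, 1.94 and 1.28 CPM in control mice S01 to S03 and 1.33, 0, 4.44 and 7.31 CPM in dKO mice S06 to S09, and microglia-like cells held 5 UMIs over all mice. Müller glia-like cells stood at 3.76 to 7.73 CPM (median 5.48) and neurons at 3.83 to 6.75 CPM (median 5.01). Of the 6 pairs of types, 0 passed the test by edgeR, while DESeq2 called 1, and 1 had an unadjusted p under 0.05 by each tool. RPE-like minus Müller glia-like cells gave −0.64 (95% interval −1.28 to −0.004, edgeR adjusted p = 0.078), and passed with library sizes (−0.85, edgeR adjusted p = 0.016), with DESeq2 (−0.69, adjusted p = 0.048) and without S09 (−0.90, edgeR adjusted p = 0.020). Among neurons, cones held 12.1 to 21.6 CPM in the 9 mice, above rods at 3.38 to 6.86 CPM and bipolar cells at 0 to 8.57 CPM without overlap.

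Some of the genes had like patterns across the 30 sums of mouse and cell type. Pearson's r of log2(CPM + 1) was 0.92 for *Abca1* with *Npc2*, 0.89 for *Apoe* with *Lrp1*, 0.80 for *Abcg1* with *Npc1* and −0.77 for *Abcg1* with *Soat1*. Over all genes tested, the pattern most like *Apoe* was that of *Tmem164* (0.99), that most like *Abca1* was *9930111J21Rik2* (0.97), and those most like *Lrp1* and *Npc2* were *Plxnb2* and *Sdcbp* (both 0.96). *Soat1* was most like *Abcc4* (0.96), *Abcg1* most like *Med13l* (0.94), *Npc1* most like *Rnf130* (0.93), *Nr1h3* most like *Nhej1* (0.92) and *Scarb1* most like *Fryl* (0.90). The sums of a mouse share its dissociation and library, and these values are descriptions over sums of 4 cell types.

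The other genes of the pathway came from a list of 72, of which 64 were tested between cell types. In RPE-like cells 32 were higher and 15 lower than in neurons, beside 26.6% and 43.4% of all genes. Those with the lowest p among the higher were *Clu* (clusterin, another secreted lipid carrier, log2 difference 5.54), *Pltp* (phospholipid transfer, 7.20), *Plin2* (coat of lipid droplets, 6.18), *Cyp27a1* (oxysterol synthesis, 5.18) and *Lrp2* (the receptor megalin, 4.33). Against Müller glia-like cells, 29 were higher and 16 lower, beside 26.2% and 33.2% of all genes. *Pltp* had a median of 256 CPM in RPE-like and 0.81 CPM in Müller glia-like cells (log2 difference 7.53), and *Lrp2* 775 and 82.8 CPM (3.27). The sterol exporter *Abcg4* was lower in RPE-like cells than in neurons (−3.23), as was *Abcg1*, and so were the sterol transfer gene *Gramd1b* (−1.21) and the retinoid X receptor gene *Rxrg* (−1.75).

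In Müller glia-like cells 26 of the 64 genes were higher and 20 lower than in neurons, beside 28.1% and 42.4% of all genes. The higher ones were led by *Cyp27a1* (log2 difference 6.32), *Clu* (4.80), *Lcat*, which esterifies cholesterol on lipoprotein (6.05), the sorting receptor *Sorl1* (2.69) and the scavenger receptor *Cd36* (5.36). The receptor *Vldlr* (−3.04), *Rxrg* (−2.94) and the lipoprotein lipase *Lpl* (−3.86) were lower. *Cd36* had a median of 20.9 CPM in Müller glia-like cells (896 UMIs) and 212 CPM in microglia-like cells (126 UMIs), and 1 UMI was counted over the RPE-like cells.

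**Figure D4:**
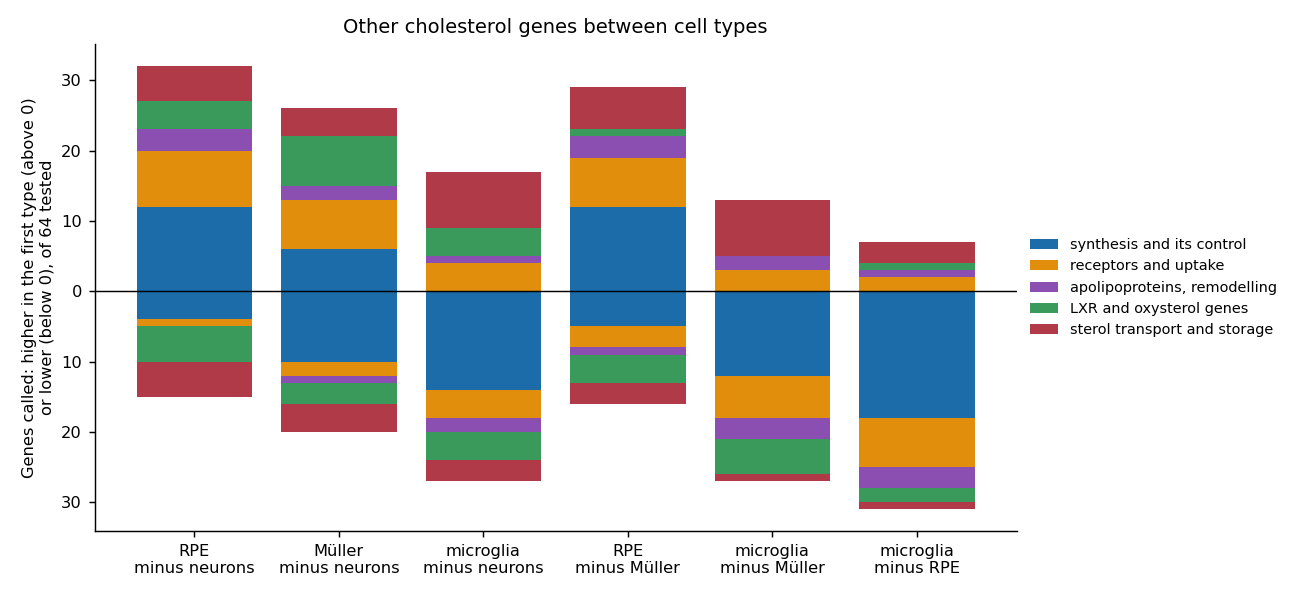
Number of the 64 tested pathway genes called by edgeR at an adjusted p under 0.05 in each pair of cell types, stacked by group, with genes higher in the first type above 0 and lower below 0. Of the synthesis group, 0 were higher in microglia-like cells in each of their 3 pairs, and 18 were lower than in RPE-like cells on the TMM scale, against 14 with DESeq2 and 11 with library sizes.

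Microglia-like cells were higher than neurons in 17 and lower in 27 of the 64 genes, beside 17% and 36.8% of all genes. They held more *Plin2* (log2 difference 6.00), *Cd36* (7.70), *Pltp* (4.21) and *Mylip* (2.50), a ligase that directs lipoprotein receptors to degradation. Of the 24 tested genes of cholesterol synthesis and its control, 0 were higher in microglia-like cells, and 14 were lower than in neurons, 12 were lower than in Müller glia-like cells and 18 lower than in RPE-like cells, where 36.8%, 26.9% and 24.1% of all genes were lower. The median log2 difference of these genes was −1.36, −1.26 and −1.99, beside −0.69, −0.43 and −0.32 over all genes. With DESeq2 the counts of lower genes were 7, 7 and 14, and with library sizes 7, 6 and 11, with 0 higher under both. Of the 12 tested genes of sterol transport and storage, 8 were higher and 3 lower than in neurons (8 and 1 under both other scalings), and 8 were higher and 1 lower than in Müller glia-like cells, among them the lysosomal membrane gene *Lamp1* (1.98), where 17% and 15.1% of all genes were higher.

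The second question was whether deletion of the microRNAs in the RPE was followed by a change in these genes. In RPE-like cells, 7 of the 9 genes were tested in 3 control against 4 dKO mice by edgeR, and 0 were called at an adjusted p under 0.05, where the share called over all 9641 genes was 0%. By edgeR 512 of those genes had an unadjusted p under 0.05 and by DESeq2 158, and 0 of the 7 did by edgeR. *Abcg1* and *Nr1h3* were removed by the filter on low counts, which was passed by the other 7. The control and dKO ranges overlapped for all 7, where 6.02% of all tested genes had no overlap.

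Of the genes with a seed match, *Soat1* had a control mean of 298 ± 60.9 CPM (SD, n = 3) and a dKO mean of 348 ± 136 CPM (SD, n = 4) in RPE-like cells, with a log2 fold change of 0.34 (95% interval −0.20 to 0.89). The lowest value of all, 182 CPM in S07, and the highest, 497 CPM in S08, were both from dKO mice. Leaving out 1 mouse at a time gave 0.12 (without S08) to 0.47 (without S02), and 0.46 without S07. *Lrp1* gave 0.02 (−0.44 to 0.48) and *Abca1* −0.10 (−0.49 to 0.29). All 3 intervals included 0, and the upper bounds are the largest rises that these 95% intervals include.

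Of the genes with no AAAGGGA match, *Apoe* gave 0.19 in RPE-like cells (95% interval −0.25 to 0.63, and 0.059 without S02, 0.0995 without S06 and 0.109 without S09), *Npc2* −0.04 (−0.59 to 0.51) and *Scarb1* −0.01 (−0.48 to 0.47). The fitted difference furthest from 0 was that of *Npc1*, −0.52 ± 0.29 (95% interval −1.14 to 0.10, unadjusted p = 0.095 and adjusted p = 0.996 by edgeR). The dKO mouse S06, at 22.1 CPM, lay within the control range of 20.6 to 32.0 CPM, and S08 and S09 lay below it, while the 0 of S07 allows values on either side. Leaving out 1 mouse at a time gave −0.75 (without S06) to −0.37 (without S08) for *Npc1*, and −0.49 without S07.

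In Müller glia-like cells all 9 genes were tested by edgeR in 4 control against 5 dKO mice, and 0 were called, beside 0% of 13415 genes (233 at an unadjusted p under 0.05 by edgeR, 181 by DESeq2). *Apoe* held 669, 588, 630 and 584 CPM for the controls (S01 to S04) and 841, 617, 608, 639 and 617 CPM in dKO mice S05 to S09. Only S05 lay above the control range, and the log2 fold change was 0.08 (95% interval −0.17 to 0.33). The fitted log2 fold changes ranged from −0.31 for *Nr1h3* (−0.85 to 0.24) to 0.23 for *Abcg1* (−0.31 to 0.77), and 0 of the 9 genes had groups without overlap, beside 0.88% of all tested genes. *Abca1* gave −0.06 (−0.36 to 0.23), *Lrp1* −0.02 (−0.36 to 0.32) and *Soat1* −0.19 (−0.52 to 0.15). Endothelial markers summed to 1232 to 1738 CPM in the control mice and 1381 to 1692 CPM in the dKO mice. Astrocyte markers summed to 770 CPM in S04, against 86.2 to 150 CPM in the other mice. Rod markers summed to 2148, 2453 and 3404 CPM in S04, S05 and S07, against 402 to 800 CPM. Their part in these values was not tested.

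In neurons, 0 of 9 genes were called by edgeR, beside 0% of 18199 genes (108 at an unadjusted p under 0.05 by edgeR, 151 by DESeq2), and 0 of the 9 had groups without overlap, beside 0.341%. *Abca1* was at 68.4, 60.8, 68.7 and 84.6 CPM for the controls (S01 to S04) and at 50.3, 63.6, 68.6, 51.8 and 59.0 CPM in dKO mice S05 to S09. The dKO mice S05, S08 and S09 lay below the control range, and the log2 fold change was −0.29 ± 0.15 (95% interval −0.64 to 0.05, unadjusted p = 0.088 and adjusted p = 1 by edgeR). Without S04, S05 and S07 it was −0.19. The intervals of *Lrp1* (−0.88 to 1.08) and *Npc1* (−0.92 to 0.56) were wider than that of *Soat1* (−0.22 to 0.32).

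**Figure D5:**
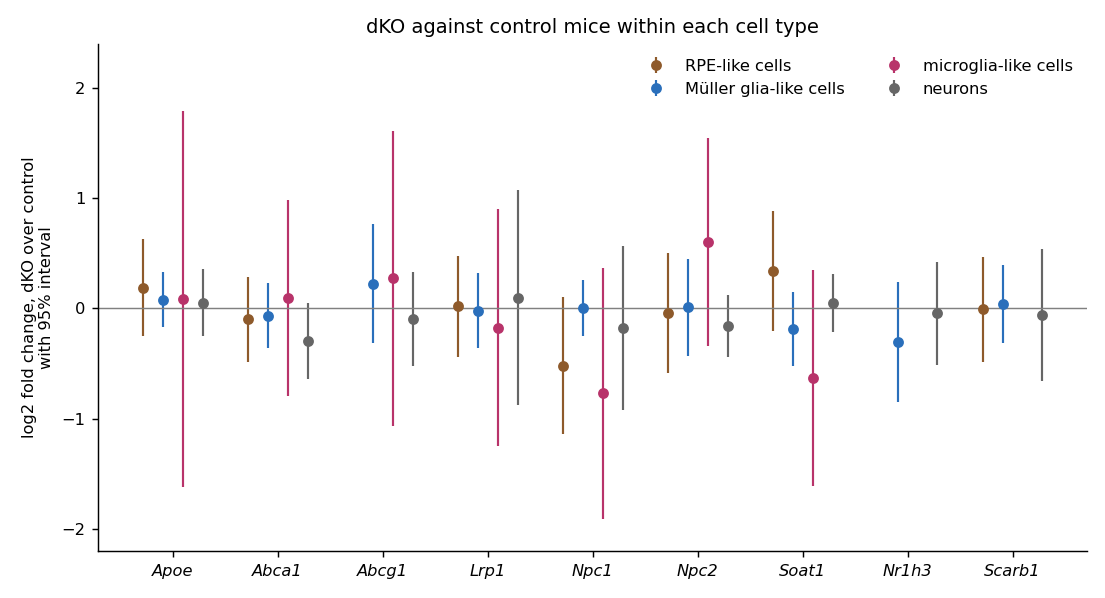
Log2 fold change of dKO over control mice for each gene in RPE-like cells (brown), Müller glia-like cells (blue), microglia-like cells (magenta) and neurons (grey), with 95% intervals, for the 32 combinations tested. All 32 intervals include 0, and those of microglia-like cells, with 2 control and 3 dKO mice, are wide, as for *Apoe* at −1.62 to 1.79.

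For microglia-like cells the comparison rested on 2 control against 3 dKO mice, and 0 of 7 tested genes were called by edgeR, beside 0% of 3493 genes (90 at an unadjusted p under 0.05 by edgeR, 47 by DESeq2). *Nr1h3* and *Scarb1* were not tested. The groups did not overlap for 3 of the 7 genes, *Npc1*, *Npc2* and *Soat1*, where 15.4% of all tested genes had no overlap. *Npc1* was at 205 and 142 CPM in control mice and 98.9, 124 and 47.8 CPM in dKO mice, with a log2 fold change of −0.77 ± 0.50 (95% interval −1.91 to 0.37). *Soat1*, at 134 and 163 CPM against 98.9, 84.7 and 95.5 CPM, gave −0.63 ± 0.43 (−1.61 to 0.35). *Npc2* ran the other way, at 116 and 106 CPM against 132, 164 and 207 CPM, and gave 0.60 ± 0.41 (−0.34 to 1.54). The unadjusted edgeR p of these 3 genes ran from 0.16 to 0.18. With a minimum of 5 cells per mouse, the log2 fold change of *Soat1* turned to 0.23. The macrophage markers were also higher in every dKO sum than in both control sums, and their part in these values was not tested.

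Whether the difference between dKO and control mice varied with cell type was tested for each of the 9 genes in 3 pairs of types, by a two-sided exact permutation test over mice on log2(CPM + 1). Of the 27 tests 0 passed, with a smallest adjusted p of 0.92 (exact permutation test). The smallest unadjusted p that this test allows is 0.029 for 3 against 4 mice and 0.0079 for 4 against 5. After adjustment over the 27 tests, a single gene at either limit would not pass, so no conclusion is drawn for single genes. For *Npc1* the dKO effect in RPE-like cells minus that in Müller glia-like cells was −1.52 (exact permutation p = 0.20), and without S07, whose value is a 0, it was −0.48. The other differences of effect between RPE-like and Müller glia-like cells ran from −0.73 for *Abcg1* to 0.42 for *Nr1h3*, which without S07 were 0.18 and 0.96, with 0.21 for *Soat1*, 0.17 for *Lrp1* and 0.11 for *Abca1*. Between RPE-like cells and neurons they ran from −1.60 for *Npc1*, which was −0.34 without S07, to 0.33 for *Lrp1*, and between Müller glia-like cells and neurons from −0.30 for *Lrp1* to 0.34 for *Abcg1*.

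In the longer pathway list, 57 of the 72 genes were tested in RPE-like cells, 62 in Müller glia-like cells, 16 in microglia-like cells and 65 in neurons, and edgeR called 0 in each. At an unadjusted p under 0.05 it counted 2, 3, 0 and 0. Those in RPE-like cells were *Nr1h2*, which encodes LXRβ (log2 fold change −0.84, edgeR adjusted p = 0.76), and *Lamp1* (0.75, edgeR adjusted p = 0.90). Those in Müller glia-like cells were the receptor gene *Lrp2* (0.47) and the synthesis genes *Pmvk* (0.56) and *Fdft1* (0.40), each with an edgeR adjusted p of 1. The synthesis genes had a median log2 fold change of 0.05 in RPE-like cells (22 tested), 0.29 in Müller glia-like cells (24 tested) and 0.04 in neurons (25 tested), and the LXR and oxysterol genes of −0.28, −0.09 and −0.02 (9, 11 and 11 tested), beside −0.01, 0.0034 and −0.0020 over all genes.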

How the data were processed

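The deposited counts are UMI counts per gene and cell, which the authors made with split-pipe and Seurat 4.3.0 in R 4.2.2 on GRCm39, keeping cells with at least 200 genes and genes in at least 3 cells. Cells were assigned by gates on marker UMIs, cells meeting 2 gates were left out (104, and 221 rods meeting another neuron gate), and raw UMIs were summed per mouse and type, with at least 10 cells. No doublet caller was run. dKO and control mice were compared within each type, and types with mouse as a block, by edgeR 4.0.16 (TMM, filterByExpr, quasi-likelihood test, R 4.3.3) over all genes, with DESeq2 1.42.0 as an alternative. Intervals are 95% intervals from the standard error, p-values were adjusted by Benjamini-Hochberg, and the scripts were tested on simulated data. The members and lists were chosen with earlier results of these data known. All 9 members are described, and of the pathway list the 5 genes with the lowest p in each direction could be named. Intervals and limits from counts cover counting error only. Replicates are separate mice in the labels, except that S06 and S07 have 1 number.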

Additional observations from a re-analysis of the deposited data

Results flagged for a closer look

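In 5 of 45 groups of 4 or 5 mice, 1 mouse lay far from the others of its group by Dixon's test, which chance does in about 1 of 20 groups. *Lrp1* in the neurons of control mouse S04 stood at 21.2 CPM (419 UMIs), against 116 to 126 CPM in the other control mice, and *Npc1* there at 122 CPM (2415 UMIs), against 53.9 to 62.0 CPM. *Apoe* in the Müller glia-like cells of dKO mouse S05 stood at 841 CPM (435 UMIs), against 608 to 639 CPM in the other dKO mice. *Scarb1* in those of dKO mouse S09 stood at 178 CPM (954 UMIs), against 146 to 151 CPM. *Nr1h3* in those of control mouse S04 stood at 3.76 CPM, from 2 UMIs, against 5.99 to 6.25 CPM.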

How the results depend on the processing

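Among the members, 480 of 540 values of the differences between cell types under other settings kept their direction and their side of the threshold, 28 passed it anew, 19 no longer passed and 13 turned in sign. Of the dKO differences 221 kept both and 27 turned, and of the differences of effect 72 and 9. Those that turned, and the counts of genes that moved, are given here on the log2 scale, and their cause was not tested. No paired analysis was possible because control and dKO mice have no number in common. Between types, the fit with no replicate block (mouse) gave 0.63 for *Apoe* and −0.55 for *Lrp1* in microglia-like minus RPE-like cells, and it changed no other member's call.

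With DESeq2, dKO minus control was 0.071 for *Npc2* in RPE-like and −0.00867 for *Npc1* in Müller glia-like cells, and microglia-like minus Müller glia-like cells 0.26 for *Nr1h3*. With library sizes, RPE *Scarb1* was 0.00272 and microglia-like minus Müller glia-like *Nr1h3* 0.39. With no filter on low counts, 74 genes were called in RPE-like and 18 in microglia-like cells, RPE *Lrp1* was −0.017 and Müller *Npc1* −6.2e-05. With S06 and S07 summed, RPE *Scarb1* was 0.037. With Y-linked RNA as a covariate, RPE *Scarb1* was 0.037, Müller *Lrp1* 0.048 and Müller *Npc1* −0.00015. Without S04, S05 and S07, chosen after seeing the data, RPE *Scarb1* was 0.035 and in Müller glia-like cells *Apoe* was −0.0097, *Abcg1* −0.045, *Npc1* −0.045 and *Scarb1* −0.020. With at least 5 cells per mouse, microglial *Abca1* was −0.20 and *Soat1* 0.23.

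With the stricter gate, 1 gene was called in RPE-like cells, RPE *Scarb1* was 0.080, Müller *Lrp1* 0.0077 and *Npc1* −0.059, microglial *Lrp1* 0.11, neuronal *Apoe* −0.13, microglia-like minus Müller glia-like *Nr1h3* 0.47 and microglia-like minus RPE-like *Npc2* −0.12. The effect in RPE-like minus Müller glia-like cells was then −0.024 for *Abca1*, 0.37 for *Abcg1*, −0.42 for *Npc2* and 0.12 for *Scarb1*, and minus neurons 0.31 for *Abcg1*, −0.16 for *Npc2* and 0.18 for *Scarb1*. Without the cells with most rod RNA, RPE *Scarb1* was 0.067, Müller *Npc1* −0.017 and *Npc2* −0.050, microglial *Apoe* −0.24, RPE-like minus Müller glia-like *Scarb1* 0.062 and microglia-like minus Müller glia-like *Nr1h3* 0.37. With rods as the neurons, RPE-like and Müller glia-like cells minus neurons were −0.64 and −0.50 for *Scarb1*, and microglia-like minus Müller glia-like *Nr1h3* 0.0071. With the other neurons, *Nr1h3* was 0.072 in this pair, and neuronal *Apoe* and *Soat1* were −0.16 and −0.0011. In control mice only, microglia-like cells had 4631 genes called against neurons, 3740 against Müller glia-like and 3930 against RPE-like cells, *Nr1h3* was −0.64 against neurons, *Npc2* −0.38 against RPE-like cells, and RPE-like minus Müller glia-like *Scarb1* 0.016. With a pseudocount of 0.1, the effect in RPE-like cells for *Nr1h3* was −0.10 minus Müller glia-like cells and −0.38 minus neurons.

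Leaving out each mouse in turn, 0 to 10 genes were called in RPE-like cells (10 without S02, 7 without S06, 4 without S09, 1 without S01) and 0 to 1 in Müller glia-like cells (1 without S01). The dKO difference in RPE-like cells ran from −0.11 to 0.13 for *Lrp1*, −0.16 to 0.21 for *Npc2* and −0.25 to 0.19 for *Scarb1*. In Müller glia-like cells it ran from −0.12 to 0.046 for *Abca1*, −0.15 to 0.13 for *Lrp1*, −0.050 to 0.059 for *Npc1*, −0.14 to 0.13 for *Npc2* and −0.093 to 0.15 for *Scarb1*. In microglia-like cells it ran from −0.72 to 2.17 for *Apoe*, −0.15 to 0.40 for *Abca1*, −0.13 to 0.84 for *Abcg1* and −0.63 to 0.53 for *Lrp1*, where a lone control mouse is assumed to vary like the others. In neurons it ran from −0.19 to 0.11 for *Abcg1*, −0.22 to 0.27 for *Lrp1*, −0.34 to 0.22 for *Npc1*, −0.021 to 0.11 for *Soat1*, −0.18 to 0.029 for *Nr1h3* and −0.21 to 0.21 for *Scarb1*. Between types, *Nr1h3* ran from −0.12 to 0.61 in microglia-like cells minus neurons and −0.37 to 0.29 minus Müller glia-like cells, *Npc2* from −0.21 to 0.10 in microglia-like minus RPE-like cells and *Scarb1* from −0.12 to 0.079 in RPE-like minus Müller glia-like cells. The effect in RPE-like minus Müller glia-like cells ran from −0.10 to 0.25 for *Abca1*, −1.15 to 0.18 for *Abcg1*, −0.44 to 0.53 for *Npc2*, −0.0092 to 0.47 for *Soat1*, −0.065 to 0.96 for *Nr1h3* and −0.30 to 0.049 for *Scarb1*. Minus neurons it ran from −0.99 to 0.19 for *Abcg1*, −0.00044 to 0.50 for *Lrp1*, −0.13 to 0.66 for *Npc2*, −0.16 to 0.41 for *Soat1*, −0.19 to 0.69 for *Nr1h3* and −0.51 to 0.15 for *Scarb1*. The effect in Müller glia-like cells minus neurons ran from −0.040 to 0.087 for *Apoe*, −0.49 to 0.18 for *Lrp1*, −0.12 to 0.31 for *Npc1*, −0.12 to 0.19 for *Npc2*, −0.22 to 0.088 for *Nr1h3* and −0.21 to 0.29 for *Scarb1*.

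Depth limits the RPE-like cells of S07 and the microglia-like cells most, as well as *Nr1h3* in every type. The labels say that the retina was peeled from the eye cup, and how the RPE-like cells compare with the whole layer was not tested.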

Other observations

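Cell types that entered no comparison also held these genes. Fibroblast-like cells (6 mice) had a median of 1827 CPM of *Lrp1*, 388 CPM of *Abca1* and 100.3 CPM of *Apoe*, and pericyte-like cells (6 mice) 675 CPM of *Lrp1*. Endothelial-like cells (7 mice) held 133 to 228 CPM of *Scarb1*, with a median of 183 CPM. Melanocyte-like cells reached 10 cells in 2 mice, at 529 and 492 CPM of *Abca1* and 306 and 117 CPM of *Apoe*.

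Sums of fewer than 10 cells were left out of the tests. The 3 RPE-like cells of dKO mouse S05, with 13603 UMIs, gave 4558 CPM of *Apoe*, 5072 CPM of *Lrp1*, 662 CPM of *Soat1* and 515 CPM of *Npc2*. The 5 microglia-like cells of dKO mouse S07 gave 5344 CPM of *Apoe* and 450 CPM of *Soat1*, and the 8 of control mouse S01 gave 1114 CPM of *Apoe*.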
